A study of Bos taurus with 10 samples.

Results

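PRDX1, PRDX2 and TXN, a pair of peroxiredoxins and the thioredoxin that reduces them, were followed in RNA of cattle embryos produced by in vitro fertilization (IVF) and in RNA of adult cattle tissues. Their probe sets were taken by gene symbol. The platform annotation gives 7 probe sets to these 3 symbols, of which 3 had values, 1 for each gene, and 4 were blank on every array. They are 3 of 6732 genes with values under a single symbol, and all 3 passed the filter on dim probe sets, which asks for a value above the array median on 3 or more arrays. The tissue arrays alone would have passed them, with 7 tissues above that median for PRDX1, 4 for PRDX2 and 3 for TXN.

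The arrays carry human probes, and bovine total RNA was read on them by cross-species hybridisation. Pooled IVF embryo RNA was read on 3 arrays. Each of 7 tissues had a single array: heart, muscle, lung, spleen, liver, kidney and brain, all named as adult by the series title. The labels leave unstated whether separate pools lie behind the 3 embryo arrays, so the spread among those 3 may be technical. The comparison of embryos with tissues pools that spread with the spread among the 7 tissues. Stage and number of the embryos, and breed, sex and number of the animals, were not used here. All 3 human symbols are also symbols in the bovine RefSeq gene table. The values come with no genome build, so no coordinates are given, and probe sequences were not used here.

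Peroxiredoxins are thiol enzymes that reduce hydrogen peroxide and are themselves oxidized in the reaction. Thioredoxin restores them, thioredoxin reductase restores thioredoxin, and the electrons come from NADPH. PRDX1 and PRDX2 are closely related proteins of the cytosol, PRDX2 being abundant in red blood cells, and TXN is the cytosolic thioredoxin. Embryos in culture lack the surroundings of the reproductive tract, and oxidative stress is a known concern of that culture. Levels below are quantile-normalised intensities, which have no unit, and differences were taken after adding 72.2 to the intensity and log2 transformation, so changes of dim probe sets are understated. No gene's level was set against another gene's, since bovine sequence can match human probes unequally well.

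The median deposited intensity ran from 99.2 to 221 over the 10 arrays, and the number of arrays limits the precision. Log2 values of the tested probe sets correlated at 0.856 to 0.945 between embryo arrays and at 0.356 to 0.764 between tissues. Embryo markers (KRT8, KRT18, TFAP2C, SOX2, SFN and DNMT3B, all with values) summed to 13190 to 15240 in embryos, against 346 to 1160 in tissues. Of their 9 probe sets, 1 of SFN gave 6224 to 8428 of each embryo sum. A TFAP2C probe set read 28.5 on embryo array 3, below heart (29.4), muscle (35.5), spleen (35.5), kidney (37.1) and lung (48.1). The other embryo values lay above all tissues. The list was chosen with earlier results of these data known, so it is no independent check of the embryo label. Of 56 probe sets of tissue markers, 36 were brightest, among tissues, in the tissue of that label. Kidney had 1 of 4 and spleen 0 of 3, so these markers did not bear out the kidney and spleen labels, and the results were also computed without both arrays.

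PRDX1 was higher on the embryo arrays than in the tissues. It read 1479, 1301 and 1418 on the 3 embryo arrays, against 385 in brain, 800.2 in heart, 523 in kidney, 229 in liver, 551 in lung, 436 in muscle and 860 in spleen. The embryo values lay close together and above all 7 tissues, among which spleen and heart were highest and liver lowest. The means were 1399 ± 90.7 (SD, n = 3) on the embryo arrays and 540.5 ± 224 (SD, n = 7) over the tissues, a ratio of 2.59. Embryos exceeded tissues by 1.35 ± 0.32 log2 (SE, limma adjusted p = 0.0188), and an exact permutation test over the 120 splits of the arrays gave a two-sided p of 0.00833, the smallest it can give.

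PRDX2 was also higher on the embryo arrays, with the largest difference of the 3 genes; whether those differences differ from each other was not tested. Its intensities were 1024, 871 and 902 on the embryo arrays, against 83.9 in brain, 197 in heart, 163 in kidney, 14.8 in liver, 264 in lung, 115 in muscle and 431 in spleen. The lowest embryo array was 2.02 times the spleen value, and the groups did not overlap. The embryo mean was 933 ± 80.9 (SD, n = 3) and the tissue mean 181 ± 136 (SD, n = 7), a ratio of 5.14. On the log2 scale the difference was 2.17 ± 0.43 (SE, with a limma adjusted p of 0.00674) and the exact permutation p was 0.00833 (two-sided). Liver was the lowest tissue. Its PRDX2 signal lay at the 7.23 percentile of that array, where an intensity may be background. A ratio against liver is therefore not used, and without the liver array the difference was 1.93 (limma adjusted p = 0.00376).

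TXN was higher on the embryo arrays as well. It read 350.3, 413 and 312 on the embryo arrays, against 59.1 in brain, 146 in heart, 95.8 in kidney, 209.8 in liver, 237 in lung, 59.4 in muscle and 172 in spleen. Here too the embryo arrays lay above all tissues, but the lowest of them was 1.32 times the lung value. TXN averaged 358 ± 51.0 (SD, n = 3) on the embryo arrays and 140 ± 71.0 (SD, n = 7) over the tissues, a ratio of 2.56. The difference was 1.09 ± 0.28 log2 (SE, with a limma adjusted p of 0.0276), and the exact permutation p was 0.0167 (two-sided).

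**Figure D1:**
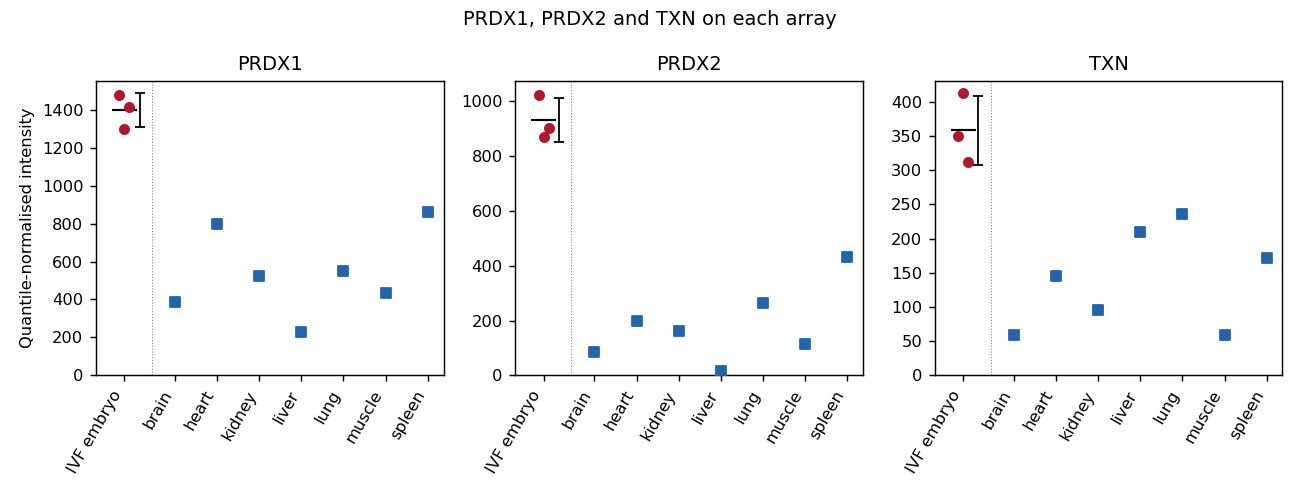
Quantile-normalised intensity (vertical axis, linear, from 0) of PRDX1, PRDX2 and TXN on each array (horizontal axis). Red circles are the 3 IVF embryo arrays with their mean (line) and SD (bar), and blue squares are the single tissue arrays. The lowest embryo values, 1301 for PRDX1, 871 for PRDX2 and 312 for TXN, lie above the highest tissue values of 860 for PRDX1, 431 for PRDX2 and 237 for TXN.

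Of all 6775 probe sets tested, 8.87% were called higher in embryos by limma at an adjusted p of 0.05 and 3.22% were called lower. Of the 5743 that the tissue arrays alone would have passed, 4.23% were called higher and 3.8% lower. All 3 genes were among those called higher. They were chosen with earlier results of these data known, so their calls are no independent support. All 3 embryo arrays lay above all 7 tissues for 12.5% of the tested probe sets, so this separation is not rare on these arrays. Ordered by the size of the rise, PRDX2 was at place 69 of 6775, PRDX1 at 277 and TXN at 457.

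The embryo arrays lay above all tissues under each of the 3 scalings examined. With the intensities as deposited, PRDX1 read 1311 to 1636 in embryos and 165 to 831.8 in tissues, PRDX2 read 910.0 to 1121 in embryos and 11.9 to 425 in tissues, and TXN read 306 to 450.1 in embryos and 63.3 to 219.5 in tissues. As multiples of each array's own median, PRDX1 was 7.4 to 10.6 in embryos and 1.66 to 6.59 in tissues, with heart rather than spleen the highest tissue. On that scale PRDX2 was 5.07 to 7.36 in embryos and 0.12 to 2.86 in tissues, and TXN was 1.98 to 2.81 in embryos and 0.411 to 1.69 in tissues.

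The calls and the permutation p-values both rest on counting the 3 embryo arrays as 3 samples. Averaged and counted as 1 sample against 7 tissues, they gave limma adjusted p = 0.519 for PRDX1, 0.338 for PRDX2 and 0.563 for TXN, with unadjusted p-values of 0.0397, 0.015 and 0.051 for PRDX1, PRDX2 and TXN. Leaving out any 1 embryo array also ended the calls: the limma adjusted p was 0.105 to 0.121 for PRDX1, 0.0502 to 0.064 for PRDX2 and 0.103 to 0.186 for TXN. The sizes of the differences moved little, at 1.31 to 1.40 for PRDX1, 2.10 to 2.23 for PRDX2 and 1 to 1.18 for TXN. Without kidney and spleen the differences were 1.52 for PRDX1 (limma adjusted p = 0.0155), 2.45 for PRDX2 (0.00413) and 1.11 for TXN, which no longer passed (limma adjusted p = 0.05, at the threshold).

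Red blood cell markers were read beside PRDX2, since that gene is abundant in those cells. Of 18 fixed markers 5 had values, in 8 probe sets, and their summed intensity was 1450 to 1705 on the embryo arrays and 751 to 1232 in tissues, spleen being highest. The 3 probe sets of HBB, the adult beta globin, disagreed. The first read 53.4 to 61.3 in embryos and 72.0 to 242 in tissues, the second 413 to 622 in embryos and 62.3 to 286 in tissues, and the third 265 to 385 in embryos and 7.81 to 134 in tissues. ALAS2, the heme synthesis enzyme of red cell precursors, read 32.9 to 110 in embryos and 19.9 to 261 in tissues. Markers of granulosa and cumulus cells, which surround the oocyte, summed to 875 to 1211 in embryos and 925 to 1375 in tissues over 8 probe sets of 7 genes. The part of these cells in the PRDX2 and TXN differences was not tested, and in bulk RNA more cells of a type and more RNA per cell cannot be told apart.

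Embryos were then set against each tissue separately, in a fit with 8 groups whose spread comes from the embryo arrays alone. Of 21 comparisons, 7 tissues for each of 3 genes, 17 were called higher in embryos and none lower. PRDX2 was called against all 7 tissues, as were 3.22% of tested probe sets. Its differences ran from 0.996 against spleen (SE 0.19, limma adjusted p = 0.0218) to 2.68 against brain. Liver, where the signal may be background, is counted among the calls but given no size.

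PRDX1 was called against 6 of 7 tissues, with the largest difference against liver (2.29 ± 0.18, SE, limma adjusted p = 0.00186). It did not pass against spleen, at 0.66 ± 0.18 (SE, limma adjusted p = 0.0587), where the 95% interval ran from 0.22 to 1.10. The brain and muscle signals of TXN lay at the 20.8 and 20.9 percentile of those arrays and may be near background. TXN was called against brain, muscle, kidney and heart, at 1.71, 1.70, 1.35 and 0.98 log2. It did not pass against spleen (0.81, limma adjusted p = 0.0508), liver (0.60, 0.0828) or lung (0.47, 0.165).

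The share of all tested probe sets called higher was 17.5% against brain, 18.3% against heart, 12.9% against kidney and 19.9% against liver. It was 11.9% against lung, 21.6% against muscle and 8.55% against spleen. Each tissue array was assumed to vary like the embryo arrays, which cannot be checked with 1 array per tissue. Without the second embryo array the fit called 10 of the 21 comparisons, without the first 14 and without the third 20.

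**Figure D2:**
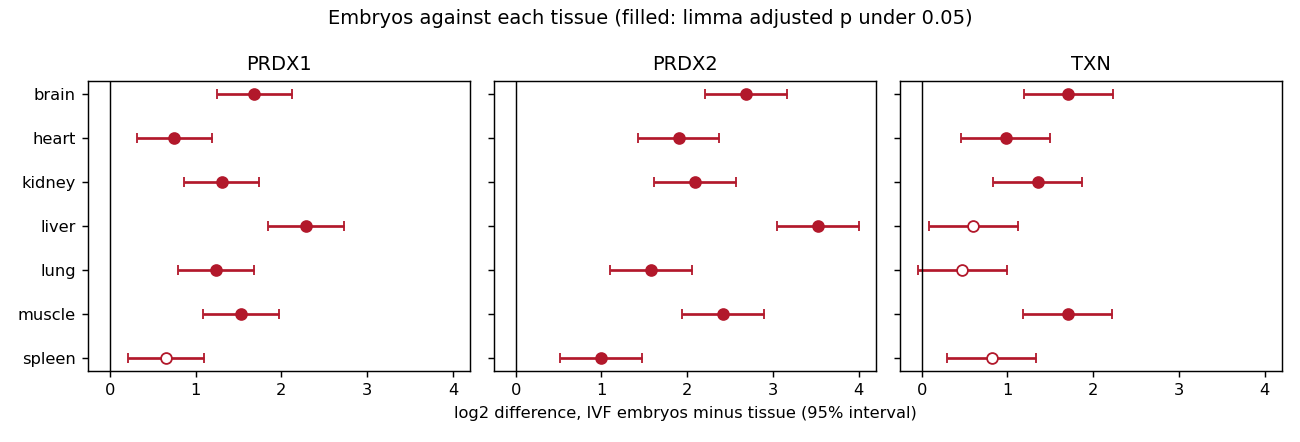
Log2 difference of IVF embryos minus each tissue (horizontal axis, with 95% intervals) for PRDX1, PRDX2 and TXN, tissues down the page. Filled circles passed a limma adjusted p of 0.05 and open ones did not: PRDX1 against spleen, and TXN against liver, lung and spleen. All 21 differences are above 0. The PRDX2 point for liver and the TXN points for brain and muscle rest on dim tissue signals that may be background.

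The order of the levels was nearly the same for PRDX1 and PRDX2 and differed for TXN. PRDX1 went from embryos through spleen, heart, lung, kidney, muscle and brain to liver. The step from embryos to spleen was 0.66 log2, against a 95% half-width of 0.44. PRDX2 went from embryos through spleen, lung, heart, kidney, muscle and brain to liver. Its step from embryos to spleen was 0.996, with a half-width of 0.48. Steps between tissues set 1 array against 1. Apart from brain to liver, none exceeded its half-width (0.539 for PRDX1, 0.582 for PRDX2), so the order among tissues is only a description.

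For TXN the order was embryos, lung, liver, spleen, heart, kidney, muscle and brain. The step from embryos to lung, 0.47, lay within its half-width of 0.52. No step between tissues exceeded its half-width of 0.635. Liver, the lowest tissue for both peroxiredoxins, was thus the second highest for TXN. Brain and muscle were low for TXN at 59.1 and 59.4, values that may be near background.

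Over the 7 tissues the log2 values of PRDX1 and PRDX2 had a Pearson correlation of 0.928 (Spearman 0.964), while those of TXN correlated at 0.105 with PRDX1 and 0.207 with PRDX2 (Spearman 0.286 and 0.393). With the embryo mean as an eighth condition the values were 0.962, 0.490 and 0.566. These are descriptions over 7 or 8 arrays that share a normalization. PRDX1 and PRDX2 are similar in sequence, and whether their probe sets read each other's transcript was not tested.

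**Figure D3:**
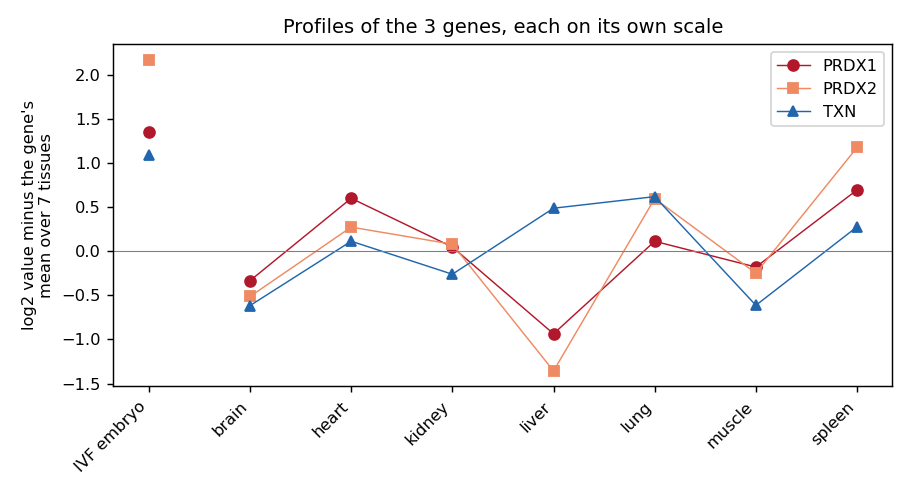
Log2 value of each gene minus its own mean over the 7 tissues (vertical axis), for IVF embryos (mean of 3 arrays) and each tissue (horizontal axis). PRDX1 and PRDX2 are both lowest in liver and highest, among tissues, in spleen, while TXN is highest in lung and next highest in liver.

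Among 5858 tested probe sets with a single symbol, those most like each gene over the 8 conditions were as follows. EIF3E, a translation initiation factor subunit, had the highest Pearson correlation with both PRDX1 (0.968) and PRDX2 (0.983), followed by BTF3P12, named as a BTF3 pseudogene in human (0.965 and 0.978). PRDX2 was the next most like PRDX1, and ANP32E, a histone chaperone, was the next most like PRDX2 (0.965). EIF3E averaged 1238 in embryos and 643 in tissues, and ANP32E averaged 406 in embryos and 95.2 in tissues. Nearest to TXN were KARS1, a lysyl-tRNA synthetase (0.966), DHRS2, a short-chain dehydrogenase (0.959), and TAAR5, a trace amine receptor (0.955), none of which passed the embryo test (limma adjusted p = 0.0536, 0.253 and 0.0657). Correlations above 0.9 were reached by 16 probe sets for PRDX1, 28 for PRDX2 and 32 for TXN.

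Most other redox genes tested did not pass. Of a list of 83 other genes, 52 had values and 40 were tested, of which 7 were called higher in embryos (17.5%, beside 8.87% of all tested probe sets), 1 was called lower (3.22% of all) and 32 did not pass. Of the 7, ME1, PGD and RRM2 passed the filter only with the embryo arrays, with 0, 2 and 1 tissues above the median, so a high embryo level put them in the test and the share supports nothing about the list. Their median difference was 0.03, and that of all tested probe sets 0.04. With the embryo arrays averaged, limma passed no gene of the list, members included, and 8 of them had an unadjusted p under 0.05.

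The other peroxiredoxins did not pass. PRDX3, the mitochondrial peroxiredoxin, averaged 324 ± 66.8 (SD, n = 3) on the embryo arrays and 317 ± 64.6 (SD, n = 7) over the tissues, 0.03 ± 0.20 apart in log2 (SE), and its other probe set differed by -0.16. PRDX4, the peroxiredoxin of the endoplasmic reticulum, read 156, 209.7 and 137 on the embryo arrays, with 81.4 to 675 in tissues, with the highest value in liver. PRDX6, a peroxiredoxin with a single catalytic cysteine, read 167 to 175 in embryos and 98.1 to 710.2 in tissues, again highest in liver. A further, untested PRDX6 probe set was highest in lung, at 694. PRDX5, TXNRD1, SRXN1 and SOD2 were not analysed here, since no value under their single symbol was in the table.

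Of 10 tested genes of the thioredoxin family, TXN and GLRX2 were called higher and none lower, beside shares of 8.87% and 3.22% over all tested probe sets. GLRX, named after its values were seen, did not pass by its brightest probe set (-0.75, limma adjusted p = 0.137). Its other probe set was too dim in tissues to be tested and went the other way. That one read 131 to 207 in embryos and 25.8 to 81.7 in tissues (limma adjusted p = 0.0162 without the filter). GLRX2, a glutaredoxin found in mitochondria among other sites, read 389, 662 and 385 on the embryo arrays, with 78.3 to 167 in tissues, 1.45 ± 0.22 higher on the log2 scale (SE, limma adjusted p = 0.00128). With the embryo arrays averaged its call was lost (limma adjusted p = 0.0887). TXN2, the mitochondrial thioredoxin, did not pass at -0.53 (adjusted p = 0.251), and its other probe set stood at 0.32. TXNIP, which binds and inhibits thioredoxin, read 36.1, 45.5 and 41.4 on the embryo arrays, with 65.7 to 257 in tissues. These groups did not overlap, as for 6.61% of tested probe sets that lay below all tissues, and the log2 difference of -0.96 ± 0.29 (SE) just missed the threshold (limma adjusted p = 0.0537).

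Genes that supply NADPH, the source of electrons for thioredoxin reductase, had values for 9 of 11 members. Of the 6 tested, PGD, TALDO1, TKT and ME1 were called higher in embryos, beside 8.87% of all tested probe sets, and PGD and ME1 were in the test only through their embryo values. The other 3, named after their values were seen, were above the median on too few arrays to be tested. NNT, the mitochondrial transhydrogenase, read 1.79 to 3.19 in embryos, where the signal may be background, and 6.76 to 314 in tissues. IDH2, the mitochondrial NADP-dependent isocitrate dehydrogenase, read 15.8 to 47.1 in embryos and 21.8 to 268 in tissues. PGLS, the lactonase of the pentose phosphate pathway, read 97.1 to 225 in embryos and 58.0 to 195 in tissues. Without the filter none of these 3 passed (limma adjusted p = 0.179 for NNT, 0.339 for IDH2 and 0.655 for PGLS).

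PGD, an NADPH-producing enzyme of the pentose phosphate pathway, read 739.9, 670 and 338 on the embryo arrays, with 0.82 to 174 in tissues, kidney being highest. The difference was 2.39 ± 0.42 log2 (SE, limma adjusted p = 0.00346), with several tissues dim enough that their signal may be background. The call was lost without an offset (4.54, limma adjusted p = 0.0568), without embryo array 1 or 2 (0.0628 and 0.0674) and with the embryo arrays averaged (0.218).

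TALDO1, the transaldolase of the same pathway, averaged 626 ± 124 (SD, n = 3) on the embryo arrays and 201 ± 132 (SD, n = 7) over the tissues, a difference of 1.48 log2 (limma adjusted p = 0.0258). Its call was lost without any 1 embryo array (limma adjusted p = 0.0857 to 0.172) and with them averaged (0.535). TKT, the transketolase, averaged 500.4 ± 77.4 (SD, n = 3) on the embryo arrays and 160 ± 155 (SD, n = 7) over the tissues, differing by 1.54 (limma adjusted p = 0.0494). Its lowest embryo array, at 445, was just below spleen, at 446, and the call was lost in 13 of 21 other settings. ME1, the cytosolic malic enzyme, averaged 196 ± 48.6 (SD, n = 3) on the embryo arrays and 41.9 ± 17.5 (SD, n = 7) over the tissues. The difference was 1.23 (limma adjusted p = 0.00609), and the call was lost with the embryo arrays averaged. With 0 tissues above the array median, ME1 was tested only because its embryo arrays were high, so this call is no independent support. Without any 1 embryo array it was not tested.

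**Figure D4:**
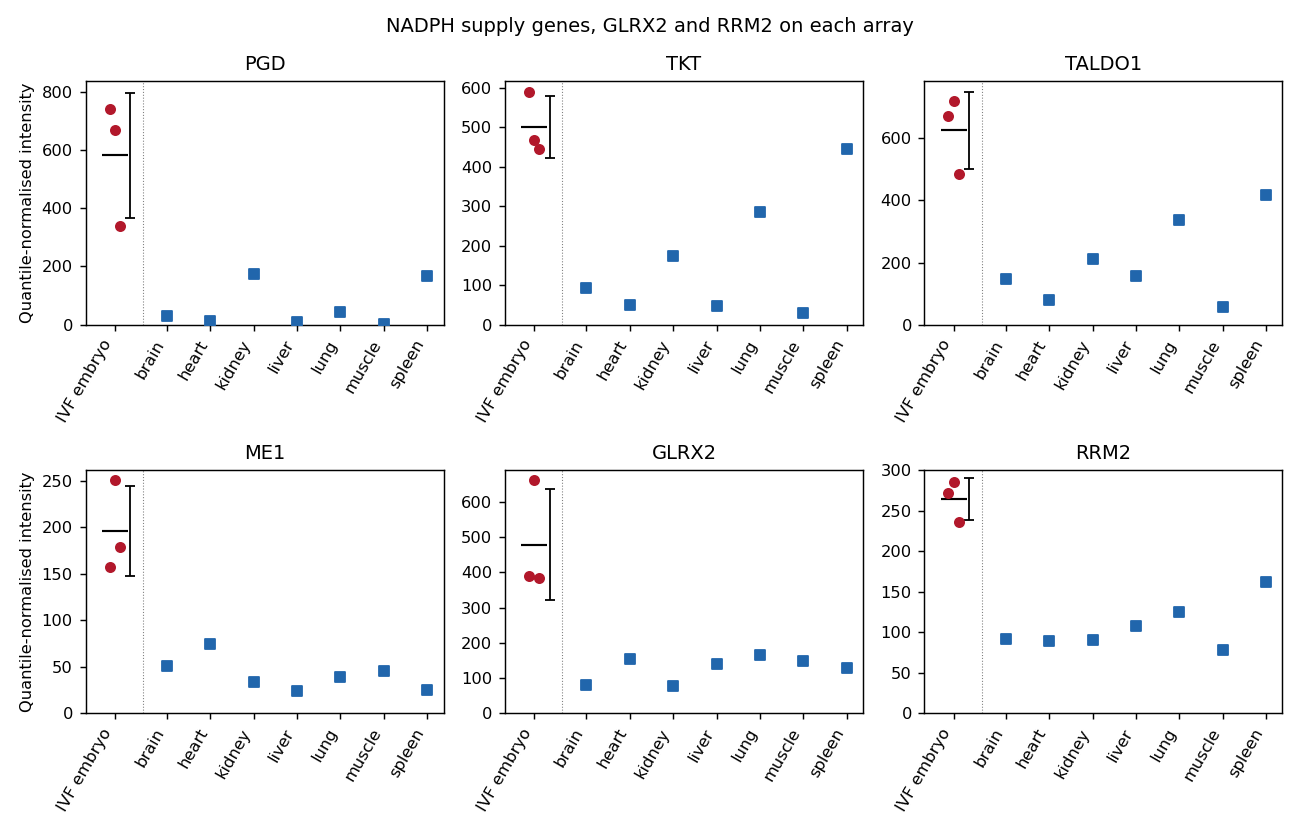
Quantile-normalised intensity (vertical axis, linear, from 0) of 4 NADPH supply genes, GLRX2 and RRM2 on each array (horizontal axis). Red circles are the 3 IVF embryo arrays with mean and SD, and blue squares single tissue arrays. Embryo values lie above all tissues except for TKT, whose lowest embryo array (445) is below spleen (446).

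The glutathione branch, which removes peroxides in parallel to the peroxiredoxins, had values for 10 of its genes and 7 tested, of which 0 were called higher and 1 lower, beside 8.87% and 3.22% of all tested probe sets. MGST3, a membrane glutathione transferase, fell, reading 54.9 to 87.6 in embryos and 123 to 1076 in tissues, a change of -1.70 ± 0.41 log2 (SE, limma adjusted p = 0.0204). That call was lost without any 1 embryo array (limma adjusted p = 0.113 to 0.127) and with them averaged (0.524). GPX1, the cytosolic glutathione peroxidase, averaged 40.0 ± 4.64 (SD, n = 3) on the embryo arrays and 208 ± 160.1 (SD, n = 7) over the tissues. It did not pass (-1.10, limma adjusted p = 0.151), and brain, at 25.3, was below the embryos. GSR, which reduces glutathione, and CAT, catalase, were above the array median on 2 arrays, kidney and liver, and so were not tested. GSR read 5.67 to 57.1 in embryos and 5.19 to 319 in tissues, and CAT read 1.70 to 3.19 in embryos and 19.7 to 359 in tissues. The embryo values of CAT and the lowest ones of GSR are dim enough that they may be background. Neither passed without the filter (limma adjusted p = 0.461 for GSR and 0.178 for CAT).

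SOD1, the cytosolic superoxide dismutase that makes hydrogen peroxide from superoxide, averaged 240.4 ± 16.6 (SD, n = 3) on the embryo arrays and 313 ± 163 (SD, n = 7) over the tissues (-0.20, limma adjusted p = 0.734). NFE2L2, the transcription factor NRF2 that drives many redox genes, averaged 257 ± 40.5 (SD, n = 3) on the embryo arrays and 330.1 ± 191 (SD, n = 7) over the tissues and did not pass (-0.16, limma adjusted p = 0.818). Among the 8 tested genes of its pathway 1 was called higher and 0 lower, beside 8.87% and 3.22% of all tested probe sets. This was SQSTM1, an autophagy receptor, which rose by 0.55 (limma adjusted p = 0.043), and that call was lost in 11 of 21 other settings. Of 4 tested proteins that thioredoxin reduces or binds, 1 was called higher and 0 lower, beside the same shares of all tested probe sets. It was RRM2, a subunit of ribonucleotide reductase that passed the filter only with the embryo arrays. RRM2 read 236 to 285 in embryos and 78.3 to 162 in tissues. The difference was 0.92 ± 0.17 (SE, limma adjusted p = 0.00515), and its call was lost without embryo array 1 or 2 (0.0709 and 0.0924) and with them averaged (0.385).

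**Figure D5:**
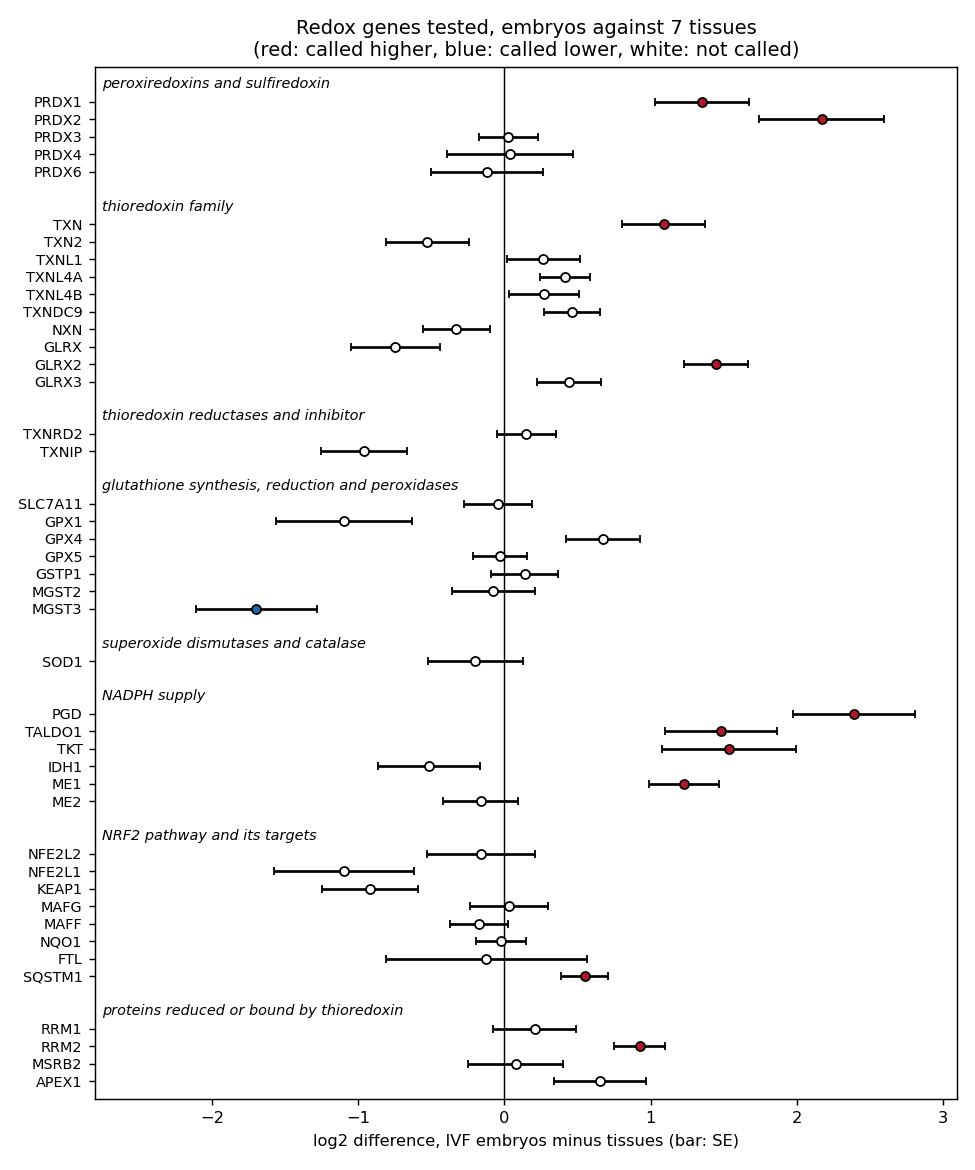
Log2 difference of IVF embryos minus the 7 tissues with its SE (horizontal axis) for the 43 tested redox genes, grouped by role. Red points were called higher (ME1, PGD and RRM2 passed the filter only with the embryo arrays), the blue point (MGST3) lower, and white points did not pass a limma adjusted p of 0.05. The largest differences are those of PGD, PRDX2 and MGST3.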

How the data were processed

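Per the deposited table, the authors gave 1 linear intensity per probe set and array for 10 arrays; the labels' text says only that RNA was hybridised across species, and how they were computed and scaled is not stated there. Blank rows made up 12064 of 22283 probe sets, and 33 controls were left out of the other 10219. Names are the platform annotation's human symbols; of the 10186 probe sets, 8847 had 1 symbol, 479 several and 860 none, and those with several named no gene.

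Array trimmed means (2%) differed 1.90-fold, so intensities were quantile normalized, which hides true differences in total signal, and transformed to log2(intensity + 72.2), the median 25th percentile. The 6775 probe sets brighter than the array median on 3 or more arrays entered limma 3.58.1, R 4.3.3 (eBayes with trend and robust, two-sided, Benjamini-Hochberg, 0.05). Single values had an exact permutation test. The brightest tested probe set stood for a pathway gene. Named were the 3 genes, 14 fixed redox genes where measured, every called pathway gene, and the 3 nearest probe sets by correlation. Genes and lists were chosen with earlier results of these data known. Alternatives covered scaling, offset, filter, variance model, averaging and arrays left out; leaving out kidney and spleen together was chosen after seeing the data. Tests were tried on simulated data. Plots were made in Python 3.11.15 (matplotlib 3.10.9).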

Additional observations from a re-analysis of the deposited data

Results flagged for a closer look

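Among the 7 tissues, 1 array stood far from the others in linear intensity, by Dixon's test at 95%, for 3 of 19 genes examined. Chance flags about 1 in 20 if values are normally distributed, which was not tested for these intensities. The log2 scale of the other tests was not used here. PRDX4 in liver read 675, the next tissue 231. PRDX6 in liver read 710.2, the next tissue 191. MGST3 in heart read 1076, the next tissue 507. None of the tissue values of PRDX1, PRDX2 or TXN stood apart in this way.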

How the results depend on the processing

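PRDX1, PRDX2 and TXN stayed higher in embryos in all 60 values from other settings, of which 47 passed the threshold and 13 did not. Outside the scalings the direction could hardly have changed, since all embryo arrays lay above all tissues. Filter, variance model, averaging and spread from embryo arrays alone left the differences as they were. The losses came with embryo arrays averaged (differences unchanged at 1.351, 2.17 and 1.09), with each embryo array left out, and for TXN without kidney and spleen (1.107, a setting chosen after the data were seen). Over all single arrays left out the differences were 1.186 to 1.47 for PRDX1, 1.927 to 2.376 for PRDX2 and 0.9872 to 1.189 for TXN. Every scaling, offset, filter and variance model kept the 3 calls. Without an offset, and with one 4 times larger, PRDX1 differed by 1.49 and 1.07, PRDX2 by 2.88 and 1.43, and TXN by 1.54 and 0.609. As deposited, the median of all tested probe sets was 0.22 higher in embryos, and relative to it the differences were 1.24 for PRDX1, 2.08 for PRDX2 and 1.07 for TXN.

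Of 819 probe sets called, 73.4% were higher in embryos, against 83.7% as deposited, 82% with the larger offset, 63.8% without an offset, 56.3% with spread from embryo arrays alone and 93.6% with averaged arrays. The count was 78 with averaged arrays, 2935 with spread from embryo arrays alone, and 90 to 910 with single arrays left out (117, 90 and 158 without embryo array 1, 2 and 3; a probe set bright on 2 embryo arrays and no tissue is then not tested). The redox list, members included, had 11 calls, 0 with averaged arrays, 22 with spread from embryo arrays alone and 1 to 11 with single arrays left out (1, 1 and 3 without the embryo arrays). Member-by-tissue calls were 17 of 21, and 10 to 20 without an embryo array. For the 16 other named genes, 258 of 323 values kept their direction and call, 41 lost a call, 9 gained one, and in 15 a difference that had not passed changed sign. The cause of these losses was not tested. No paired analysis was made, since nothing in the labels used here pairs an embryo array with a tissue array.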
